A study of Mus musculus with 16 samples.

Results

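The respiratory chain assembly factors are nuclear-encoded proteins that build the complexes of oxidative phosphorylation without, in the finished complex, being counted among their working subunits. A list of 42 of them was taken by gene symbol, with 14 factors of complex I, 3 of complex II, 6 of complex III, 16 of complex IV and 3 of complex V. All 42 were found among the 31960 genes of the count table. Their mRNA was measured in the hippocampus of 16 mice aged 70 days, with 4 libraries each of females and males of the High Activity strain and of females and males of the Low Activity strain. Both hippocampi of a mouse gave 1 library, so each library is 1 animal. High and Low Activity are inbred strains that descend from selective breeding on activity in the open field. Because each direction of selection is represented by a single inbred strain, a difference between the strains cannot be told apart from alleles fixed by chance, and only the highest-quality RNA samples of a larger set were sequenced.

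Total counts were 20815456 to 28760896 per library, and each of the 42 factors had between 85 and 3090 counts in each library. All 42 passed a minimum-expression filter, edgeR's filterByExpr. Markers of hippocampal neurons, 7 genes, summed to 780 to 952 CPM (counts scaled to a common library total) over the 16 libraries, none was near 0, and 1 was called higher in High Activity females and 2 in High Activity males. Libraries 6 and 8, both of High Activity males, stood apart in Gpr151, a marker of the habenula, at 12.3 and 10.9 CPM, against 0.222 to 2.5 CPM in the other libraries. Their thalamus and habenula markers set the top of a range of 59.2 to 395 CPM, summed over 5 genes, in High Activity males, against 58.7 to 205 CPM in Low Activity males. The 4 haemoglobin genes examined summed to 681 to 847 CPM in High Activity males, against 213 to 474 CPM in Low Activity males, and all 4 were called higher in High Activity males. In females, 4 endothelial markers summed to 154 to 177 CPM in High Activity mice, against 132 to 148 CPM in Low Activity mice, and 5 choroid plexus markers to 990 to 4451 CPM, against 129 to 1672 CPM. Of 5 astrocyte markers 2 were called higher, and of 5 microglia markers 2 were called lower, in High Activity females. Males also differed, with 2 astrocyte markers and 1 endothelial marker called higher and 1 microglia marker called lower in High Activity males. Their choroid plexus markers summed to 2280 to 5259 CPM, against 720 to 3530 CPM in Low Activity males. Leaving out libraries 6 and 8 left 9 factors called in females and 2 in males, and the part of the other markers in the factors' values was not tested. In a bulk tissue, fewer cells of a type and less RNA per cell cannot be told apart.

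Each complex of the inner mitochondrial membrane is put together from modules, and the factors act at defined steps. Some bring copper, haem, flavin or iron-sulfur clusters to a subunit, some hold a newly made subunit encoded by mitochondrial DNA until its partners arrive, and some insert a finished module. Most of these roles are known from human cells or from yeast, and loss of many of the factors in humans causes a shortage of the matching complex, often with disease of the brain. The hippocampus, like other neural tissue, depends heavily on oxidative phosphorylation.

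The stretch of 250 bases before the gene start was available from RefSeq (GRCm38.p6) for 36 of the 42 factors. No sequence was shown for Ndufaf6, Acad9, Cox17, Cox18, Coa6 and Tmem70. A search for 4 motifs covered both strands, matches of different motifs may share bases, and a match is a description of the letters only. GGGCGG, the core of an SP1 site, was in 27 of 36 factors, against 35.4% of all 27025 genes with such a record. Those genes were not limited to expressed or protein-coding ones, so these shares are not matched to the factors. CCGGAAGT, a GABPA site, was in 4 of 36 (11.1%, against 3.2% of all genes), GCATGCGC, an NRF1 site, in 2 of 36 (5.6%, against 2.6%) and AAGATGGC, a YY1 site, in 1 of 36 (2.8%, against 1.8%). Of the 7 factors with a record whose values are given below for each library, 3 held GGGCGG, and of the 29 others 24 did. Printed below are 5 of the 7 stretches, all of genes with strain differences described below. Those of Sdhaf4, which held GGGCGG, and of Uqcc3, which held none of the 4 motifs, are not printed. Ndufaf7 (chr17:78936885-78937134, plus strand) was higher and Coa5 (chr1:37430104-37430353, minus strand) lower in High Activity mice of both sexes, Cox14 (chr15:99725368-99725617, plus strand) and Uqcc2 (chr17:27133892-27134141, minus strand) were lower in High Activity females, and Cox20 (chr1:178318903-178319152, plus strand) was lower in High Activity females and alone among the 36 held the YY1 letters. They run 5′ to 3′ and end at the base before the RefSeq gene start, and capitals mark any of the 4 motifs on either strand.
Ndufaf7: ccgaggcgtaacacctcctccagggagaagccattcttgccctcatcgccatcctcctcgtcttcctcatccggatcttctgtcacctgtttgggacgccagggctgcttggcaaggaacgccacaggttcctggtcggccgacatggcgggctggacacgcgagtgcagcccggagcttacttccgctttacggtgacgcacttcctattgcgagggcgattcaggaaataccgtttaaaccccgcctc
Coa5: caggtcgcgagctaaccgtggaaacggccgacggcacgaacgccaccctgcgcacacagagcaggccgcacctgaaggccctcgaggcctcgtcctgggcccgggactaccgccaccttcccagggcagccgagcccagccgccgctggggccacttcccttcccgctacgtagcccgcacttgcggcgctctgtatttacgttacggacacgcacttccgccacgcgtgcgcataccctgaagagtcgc
Cox14: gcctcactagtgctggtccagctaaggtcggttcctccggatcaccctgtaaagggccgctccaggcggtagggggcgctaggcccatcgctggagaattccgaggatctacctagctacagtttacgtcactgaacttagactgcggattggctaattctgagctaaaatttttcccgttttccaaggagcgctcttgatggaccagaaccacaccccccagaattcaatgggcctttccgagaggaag
Uqcc2: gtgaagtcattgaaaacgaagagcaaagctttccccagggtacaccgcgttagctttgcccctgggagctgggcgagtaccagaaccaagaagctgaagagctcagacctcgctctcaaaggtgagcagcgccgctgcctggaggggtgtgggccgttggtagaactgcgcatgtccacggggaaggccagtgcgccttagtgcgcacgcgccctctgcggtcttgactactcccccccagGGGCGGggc
Cox20: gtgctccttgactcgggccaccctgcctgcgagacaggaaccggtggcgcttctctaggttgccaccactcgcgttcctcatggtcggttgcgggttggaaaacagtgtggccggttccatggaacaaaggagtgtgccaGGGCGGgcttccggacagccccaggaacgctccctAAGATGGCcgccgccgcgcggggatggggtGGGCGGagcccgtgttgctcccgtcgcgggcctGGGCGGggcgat
The stretches of Ndufaf7, Coa5 and Cox14 held none of the 4 motifs in this window, that of Uqcc2 held GGGCGG, and that of Cox20 held GGGCGG and AAGATGGC.

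The strains were compared within each sex, in the mean of both sexes and in the difference between the sexes, to ask which assembly factors differ by strain and whether that depends on sex. Log2 fold changes are High Activity minus Low Activity on the scale of TMM-normalised counts, TMM being edgeR's correction for library composition. Adjusted p-values come from the quasi-likelihood F-test of edgeR, with the method of Benjamini and Hochberg applied over all 31960 genes, and a factor was called when its adjusted p was under 0.05. SE is the standard error of a log2 fold change. Each p comes from a difference set against the spread between mice within the groups, and these mice are of 1 pair of strains. In females 9 of 42 factors were called, 1 higher in High Activity mice (Ndufaf7) and 8 lower (Sdhaf4, Uqcc2, Uqcc3, Cox14, Cox18, Cox20, Coa5 and Coa6). Over all genes 7.26% were called in females, and over the 15128 protein-coding genes that passed filterByExpr 13.3% were, 6.88% higher and 6.43% lower. In males 3 of 42 factors were called, with Ndufaf7 higher and Cox18 and Coa5 lower, against 6.04% of all genes and 10.6% of the expressed protein-coding genes, 4.90% higher and 5.75% lower. Tested for any strain effect in either sex, 8 of 42 factors (19.0%) were called, against 10.3% of all genes and 18.7% of the expressed protein-coding genes, so the share among the factors was near that background. The 42 had a median of -0.12 in females, with 34 below 0, and of -0.01 in males, with 23 below 0, and the median over expressed protein-coding genes was -0.01 in both sexes.

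**Figure D1:**
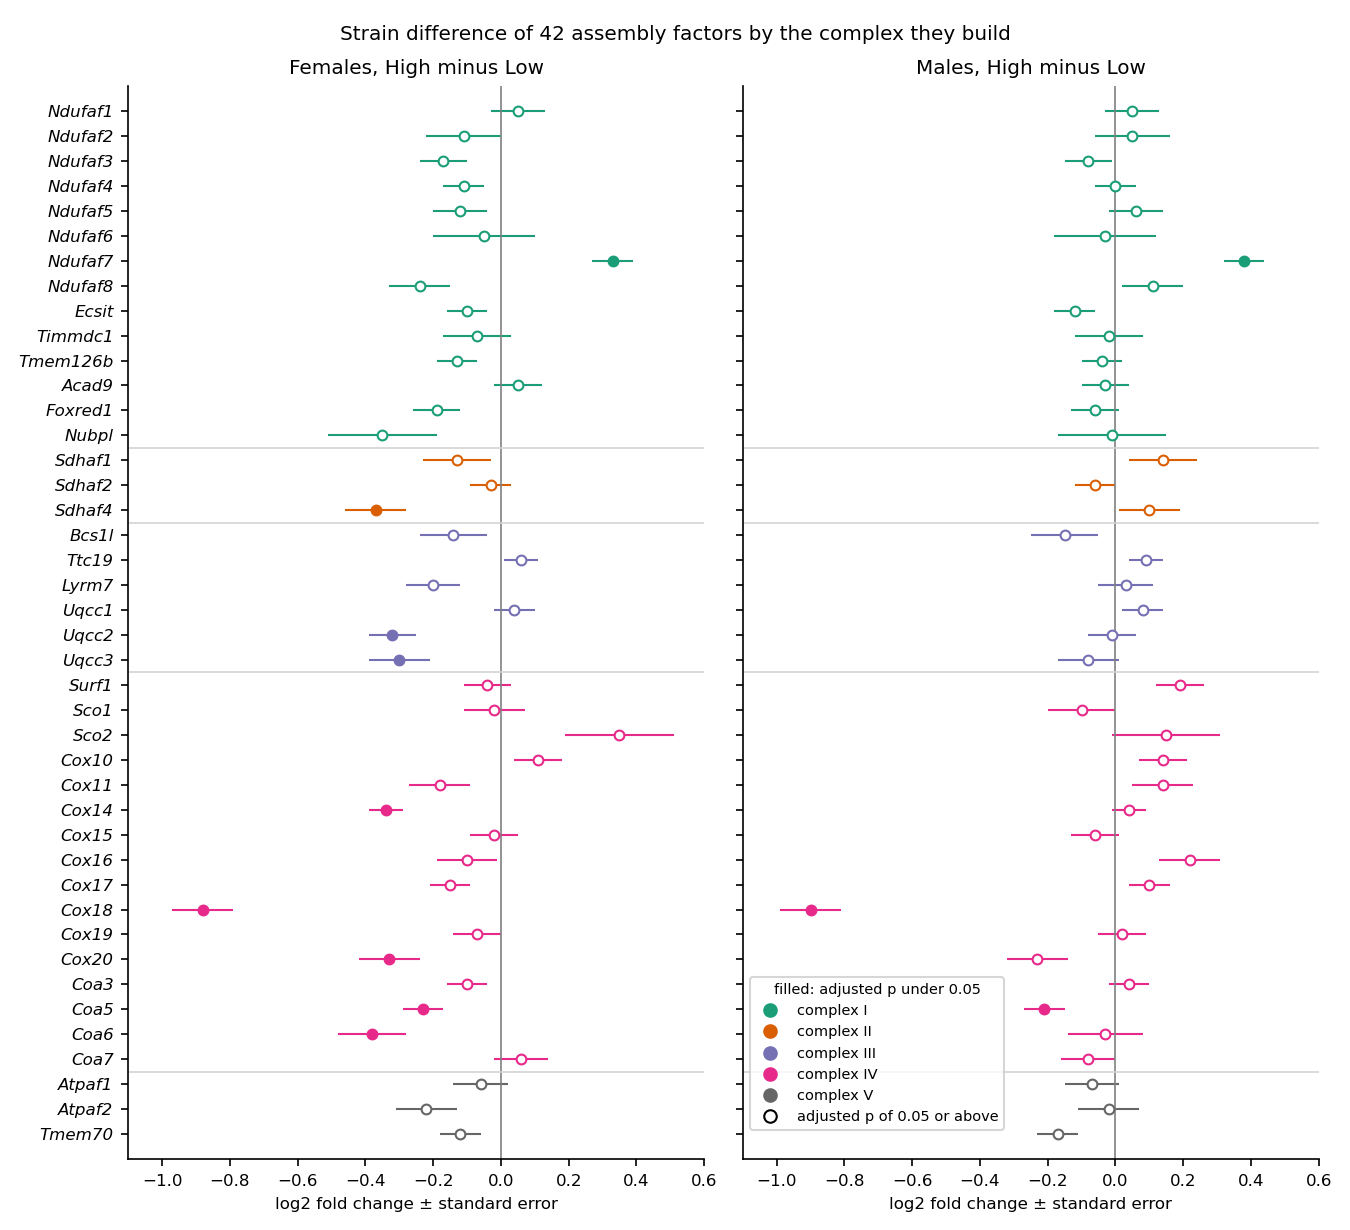
Log2 fold change of High Activity minus Low Activity mice (x axis, point and SE) for each of the 42 factors (y axis, grouped by complex), in females on the left and males on the right, with filled points at an adjusted p under 0.05. Cox18 lies farthest from 0 in both sexes at -0.88 in females and -0.90 in males, and 6 of the other filled points in females have open points in males.

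Complex I, the entry point of electrons from NADH, had 14 factors and 1 of them was called in either sex. Ndufaf7 is a methyltransferase that acts early in assembly, and its gene lies at chr17:78937136-78948052 on GRCm38 (plus strand). It was at 27.4, 27.1, 26.5 and 27.4 CPM in High Activity females, against 21.4, 21.9, 22.3 and 20.8 CPM in Low Activity females. In males it was at 26.8, 28.9, 26.7 and 26.7 CPM in High Activity mice, against 19.9, 19.3, 22.2 and 22.5 CPM in Low Activity mice. Every High Activity library lay above every Low Activity library of its sex. The log2 fold change was 0.33 (SE 0.06, adjusted p = 0.00116) in females and 0.38 (SE 0.06, adjusted p = 0.000249) in males, a rise of 1.26-fold and 1.30-fold, and both calls held in every one of 27 alternative fits.

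The other 13 complex I factors were not called in any contrast of the strains. Ndufaf8, the small partner of the hydroxylase Ndufaf5, had the smallest adjusted p of these in females, at 13.3 ± 1.14 CPM in High Activity females and 15.8 ± 0.741 CPM in Low Activity females (SD, n = 4 each), with a log2 fold change of -0.24 (SE 0.09, adjusted p = 0.0898). Nubpl, which delivers iron-sulfur clusters, had the lowest count of the list, at 3.603 ± 0.372 CPM in High Activity females and 4.59 ± 0.581 CPM in Low Activity females (SD, n = 4 each), and its log2 fold change of -0.35 carried a SE of 0.16 (adjusted p = 0.238). Ndufaf1, Ecsit, Acad9, Tmem126b and Timmdc1 form the module that builds the membrane arm, and their log2 fold changes lay between -0.13 and 0.05 in females and between -0.12 and 0.05 in males, none called. The remaining complex I factors, among them Ndufaf3 and Ndufaf4, which start the Q module, and Foxred1, an oxidoreductase, lay between -0.19 (Foxred1) and -0.05 (Ndufaf6) in females and between -0.08 (Ndufaf3) and 0.06 (Ndufaf5) in males.

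Complex II, succinate dehydrogenase, is entirely nuclear-encoded and had 3 factors. Sdhaf4, which binds the flavin-carrying subunit SDHA until it meets SDHB, was at 13.4, 11.6, 14.4 and 11.5 CPM in High Activity females, against 17.4, 16.1, 16.4 and 15.9 CPM in Low Activity females. The males were at 14.4, 15.02, 14.6 and 14.2 CPM in High Activity mice, against 12.7, 12.5, 13.7 and 15.2 CPM in Low Activity mice. The female groups did not overlap and the male groups did. Its log2 fold change was -0.37 (SE 0.09, adjusted p = 0.00611) in females and 0.10 (SE 0.09, adjusted p = 0.606) in males. Sdhaf1, which helps to insert iron-sulfur clusters into SDHB, was at -0.13 in females and 0.14 in males (SE 0.10 each), and Sdhaf2, needed to attach flavin to SDHA, at -0.03 and -0.06 (SE 0.06 each), none called.

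Complex III, the cytochrome bc1 complex, had 6 factors and 2 were lower in High Activity females. Uqcc2 binds newly made cytochrome b, the only subunit encoded in the mitochondrion. It was at 50.4, 43.1, 48.0 and 47.0 CPM in High Activity females, against 59.7, 61.1, 59.7 and 55.3 CPM in Low Activity females, with no overlap. In males, where the groups overlapped, it was at 45.1, 47.8, 42.7 and 55.4 CPM in High Activity mice, against 45.6, 47.9, 46.5 and 52.2 CPM in Low Activity mice. The log2 fold change of Uqcc2 was -0.32 (SE 0.07, adjusted p = 0.00274) in females and -0.01 (SE 0.07, adjusted p = 1.0) in males. Uqcc3, which keeps cytochrome b stable at the next step, was at 13.6, 13.1, 14.5 and 13.7 CPM in High Activity females, against 17.2, 16.9, 16.4 and 17.2 CPM in Low Activity females. The male values of Uqcc3 were 12.03, 14.9, 12.4 and 14.7 CPM in High Activity mice, against 12.6, 13.4, 14.8 and 16.3 CPM in Low Activity mice. The female groups of Uqcc3 were fully apart and its male groups were not. Its log2 fold change was -0.30 (SE 0.09, adjusted p = 0.035) in females and -0.08 (SE 0.09, adjusted p = 0.665) in males. The female call was lost without any one of 7 female libraries (1, 2, 4, 9, 10, 11 or 12), with adjusted p-values up to 0.138 over the alternatives. Uqcc1, the partner of Uqcc2, was not called, at 0.04 (SE 0.06) in females and 0.08 (SE 0.06) in males. Bcs1l, Lyrm7 and Ttc19, which bring in the Rieske iron-sulfur protein and clear its fragments, were not called either, with log2 fold changes of -0.20 to 0.06 in females and -0.15 to 0.09 in males.

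Complex IV, cytochrome c oxidase, had 16 factors, of which 5 were lower in High Activity females and 2 in High Activity males. Cox18, a membrane insertase that moves the tail of the subunit COX2 across the inner membrane, showed the largest strain difference of the 42. It was at 8.59, 8.87, 8.71 and 9.42 CPM in High Activity females, against 17.1, 15.6, 15.7 and 17.1 CPM in Low Activity females. The High Activity males were at 6.89, 8.87, 8.0 and 8.41 CPM and the Low Activity males at 14.5, 15.5, 14.6 and 15.2 CPM. In each sex the highest High Activity library was far below the lowest Low Activity library. Cox18 fell to 0.544 of the Low Activity level in females and 0.536 in males, which on the log2 scale is -0.88 in females (SE 0.09, adjusted p = 3.79e-08) and -0.90 in males (SE 0.09, adjusted p = 3.4e-08), and both calls held in all 27 alternative fits. The difference between the sexes was 0.02 (SE 0.12). The gene lies at chr5:90214724-90224001 on GRCm38 (minus strand), overlaps the exons of no other annotated gene and shares no stretch of 75 bases with one.

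Cox20 acts with Cox18 as the chaperone of COX2. It was at 11.5, 12.5, 11.1 and 10.9 CPM in High Activity females, against 14.5, 15.05, 13.9 and 14.4 CPM in Low Activity females. In males it was at 11.7, 12.9, 9.64 and 11.9 CPM in High Activity mice, against 13.1, 12.2, 15.2 and 13.7 CPM in Low Activity mice. Only the female groups were apart. The log2 fold change of Cox20 was -0.33 (SE 0.09, adjusted p = 0.027) in females, -0.23 (SE 0.09, adjusted p = 0.165) in males and -0.28 (SE 0.07, adjusted p = 0.00407) in the mean of the sexes. The female call was lost without library 1, 3, 4, 9, 10 or 12 and with a correction for transcript length and GC content (adjusted p = 0.121, the highest of its alternatives, which ranged from 0.0117), whereas the call in the mean held in all 26 alternatives. Exons of Hnrnpu on the opposite strand cover 91.1% of the exons of Cox20, and Hnrnpu was at 395 CPM with a log2 fold change of 0.17 (SE 0.05, adjusted p = 0.0328) in females, opposite in sign. The labels give the libraries as strand-specific, but the strand setting of the counting is not given in the sources used here, so reads of the 2 genes may not be separated.

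Copper reaches COX2 through Cox17, Sco1, Sco2, Coa6 and Cox16, and Coa6 alone of these was called. Coa6 was at 11.5, 10.8, 9.30 and 12.6 CPM in High Activity females, against 13.8, 15.5, 14.98 and 13.2 CPM in Low Activity females. The male libraries were at 9.88, 11.3, 10.1 and 13.2 CPM in High Activity mice, against 12.1, 10.6, 11.9 and 10.7 CPM in Low Activity mice. The female groups did not overlap and the male groups overlapped almost wholly. Its log2 fold change was -0.38 (SE 0.10, adjusted p = 0.0227) in females and -0.03 (SE 0.11, adjusted p = 0.955) in males, and the female call was lost without library 2, 3, 10 or 11 (adjusted p up to 0.112 over all alternatives). Exons of Tarbp1 on the opposite strand cover 14.1% of Coa6, and Tarbp1 itself rose by 0.79 on the log2 scale in High Activity females (adjusted p = 2.93e-05) and by 0.46 in High Activity males (adjusted p = 0.013). Sco2 had the largest positive log2 fold change of the list in females, 0.35, with a SE of 0.16, at 6.53 ± 0.361 CPM in High Activity females and 5.11 ± 0.647 CPM in Low Activity females (SD, n = 4 each). Its female groups did not overlap, yet it was not called (adjusted p = 0.22), and exons of Ncaph2 on the opposite strand or of Tymp on the same strand overlap up to 68.3% of its own. Cox17, Sco1 and Cox16 were between -0.15 and -0.02 in females and between -0.10 and 0.22 in males, none called.

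Cox14 and Coa3 hold newly made COX1, the largest subunit, and set the pace of its synthesis. Cox14 was at 54.8, 51.2, 55.2 and 52.7 CPM in High Activity females, against 69.7, 69.2, 67.9 and 63.9 CPM in Low Activity females. In males it was at 57.4, 57.7, 61.4 and 61.2 CPM in High Activity mice, against 58.4, 54.1, 56.8 and 62.1 CPM in Low Activity mice. The 4 Low Activity females were above every other library, and the male groups overlapped. The log2 fold change of Cox14 was -0.34 (SE 0.05, adjusted p = 7.9e-05) in females, called in all 27 alternatives, and 0.04 (SE 0.05, adjusted p = 0.773) in males. Coa3, its binding partner, was not called, at -0.10 (SE 0.06) in females and 0.04 (SE 0.06) in males. Neither were Cox10 and Cox15, which make haem A, Cox11, which brings copper to COX1, and Surf1 and Cox19, whose log2 fold changes lay between -0.18 and 0.11 in females and between -0.06 and 0.19 in males. Coa7 was not called at 0.06 in females and -0.08 in males.

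Coa5, a small protein needed early in complex IV assembly, had the highest count of the list. It was at 98.1, 84.8, 94.1 and 92.3 CPM in High Activity females, against 114.8, 106.3, 107.6 and 103.9 CPM in Low Activity females. The males were at 97.1, 89.0, 97.0 and 88.8 CPM in High Activity mice, against 114.2, 108.8, 100.1 and 106 CPM in Low Activity mice. All 8 High Activity libraries were below all 8 Low Activity libraries. The log2 fold change was -0.23 (SE 0.06, adjusted p = 0.00824) in females, -0.21 (SE 0.06, adjusted p = 0.0215) in males and -0.22 (SE 0.04, adjusted p = 0.000252) in the mean. The male call was lost without library 6, 8, 13 or 14 and with each sex fitted alone, and without libraries 6 and 8 together the male value was -0.14 (adjusted p = 0.289). The female call was lost without library 2 or 9 (adjusted p up to 0.0543), and the call in the mean held in all 26 alternatives.

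**Figure D2:**
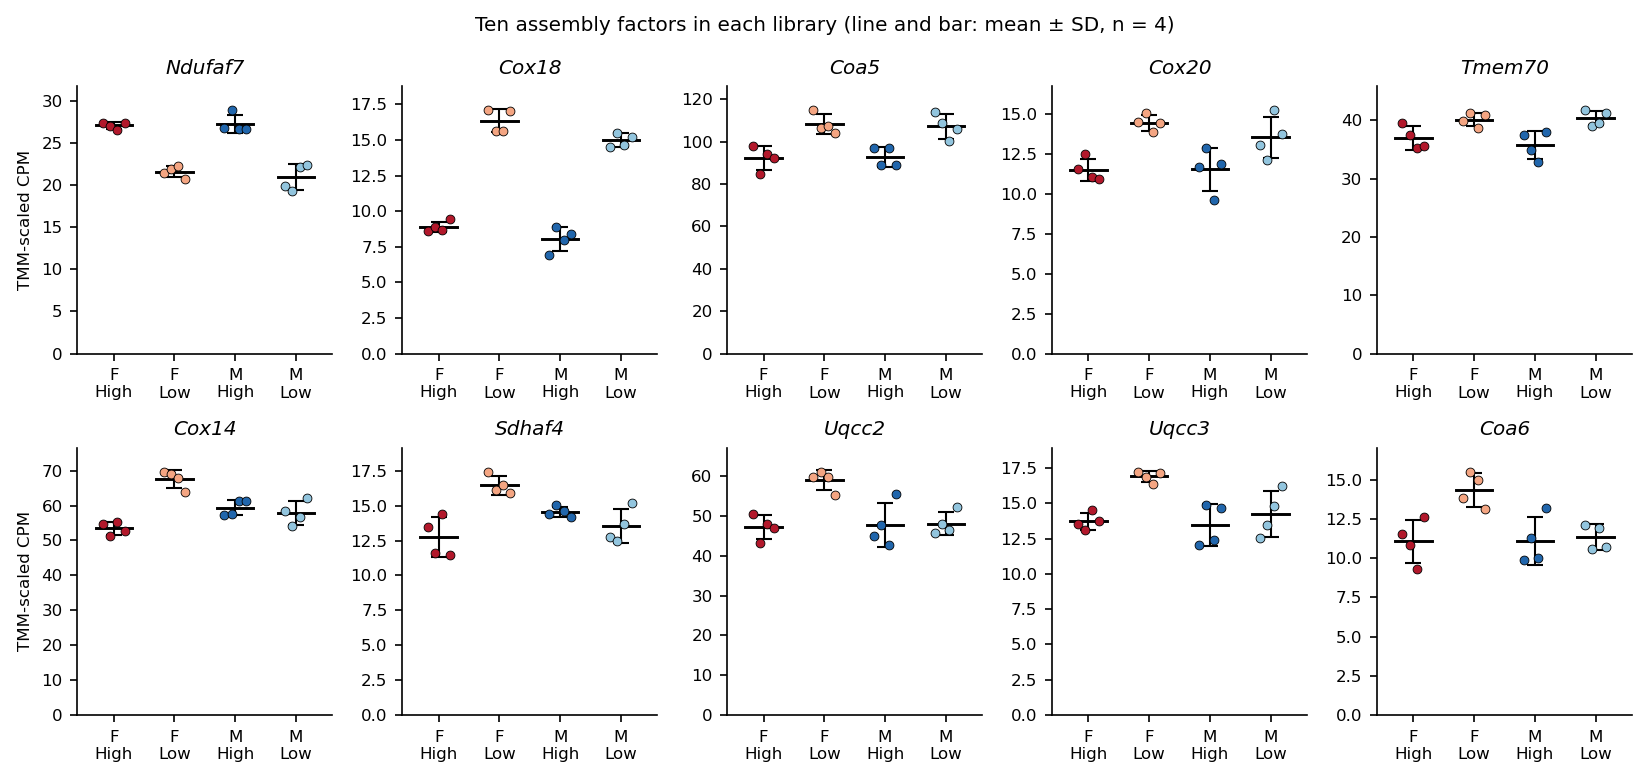
CPM after TMM scaling (y axis, from 0) of 10 factors in each library (points), with the mean and SD of 4 libraries, for High and Low Activity females and High and Low Activity males from left to right. Ndufaf7, Cox18 and Coa5 separate by strain in both sexes, while Cox14, Sdhaf4, Uqcc2, Uqcc3, Cox20 and Coa6 do so in females only and Tmem70 in males only.

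Complex V, the ATP synthase, had 3 factors and none was called within a sex. Tmem70, which helps to assemble the ring of c subunits, was at 39.5, 37.5, 35.2 and 35.6 CPM in High Activity females, against 39.8, 41.2, 38.6 and 40.8 CPM in Low Activity females. In males it was at 37.5, 34.8, 32.8 and 37.9 CPM in High Activity mice, against 41.7, 39.0, 39.6 and 41.2 CPM in Low Activity mice. The female groups overlapped in 1 High Activity library and the male groups were apart. Tmem70 was lower in High Activity mice in the mean of the sexes, at -0.15 (SE 0.04, adjusted p = 0.0192), a call lost without library 3 or 7 (adjusted p up to 0.0515). Within a sex it was at -0.12 in females (SE 0.06, adjusted p = 0.288) and -0.17 in males (SE 0.06, adjusted p = 0.0828), and with the offset for transcript length and GC content it was called in males (-0.20, adjusted p = 0.0393). Atpaf1 and Atpaf2, the chaperones of the beta and alpha subunits, were at -0.06 (SE 0.08) and -0.22 (SE 0.09, adjusted p = 0.134) in females and at -0.07 and -0.02 in males.

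In the mean of both sexes 8 factors were called, with Ndufaf7 higher and Uqcc2, Uqcc3, Cox14, Cox18, Cox20, Coa5 and Tmem70 lower in High Activity mice, against 11.4% of all genes and 20.1% of the expressed protein-coding genes, 9.58% higher and 10.5% lower. Of these calls, that of Uqcc2 was lost in 5 of 26 alternatives and that of Uqcc3 in 15 of 26, with adjusted p-values up to 0.0851 and 0.126. By ranges alone, 2 factors in females lay wholly above in High Activity libraries (Ndufaf7 and Sco2) and 15 wholly below, against 6.96% of all genes above and 6.79% below, and 24.2% of expressed protein-coding genes in either direction. In males 3 lay above (Ndufaf7, Cox10 and Cox16) and 3 below (Cox18, Coa5 and Tmem70), against 4.41% of all genes above and 5.12% below, and 15.9% of expressed protein-coding genes in either direction. Summed over the 42 factors, the level was 1062 to 1114 CPM in High Activity females and 1168 to 1208 CPM in Low Activity females, ranges that did not overlap, whereas it was 1078 to 1151 CPM in High Activity males and 1083 to 1167 CPM in Low Activity males. By complex, the female sums did not overlap for complex I (285 to 292 CPM in High Activity females, against 295 to 307 CPM in Low Activity females), complex III (207 to 218 CPM, against 222 to 227 CPM), complex IV (415 to 448 CPM, against 474 to 505 CPM) and, narrowly, complex V (83.0 to 97.7 CPM, against 98.0 to 99.9 CPM). They overlapped for complex II, at 58.2 to 67.7 CPM in High Activity females, against 65.5 to 69.9 CPM in Low Activity females. In males the sums of all 5 complexes overlapped, with complex IV at 437 to 458 CPM in High Activity males, against 436 to 473 CPM in Low Activity males. A sum weighs the factors with the highest counts most, and how often sums of other genes separate was not examined. In complex IV the means in High and Low Activity females were 92.3 and 108.2 CPM for Coa5 and 53.45 and 67.65 CPM for Cox14. The female sums of complex I were apart although 0 of its factors were called lower.

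The dependence of the strain difference on sex was tested as an interaction, the female log2 fold change minus the male one. None of the 42 factors was called, and none of the 31960 genes was either (0.00% of the table). At an unadjusted p under 0.05 there were 9 factors (Ndufaf8, Sdhaf4, Uqcc2, Surf1, Cox11, Cox14, Cox16, Cox17 and Coa6), all with a lower value in females, against 16.1% of the expressed protein-coding genes, or 6.52% with a lower value in females. For this count and that in Low Activity mice, the numbers among genes with short transcripts are given further below. Cox14 had the smallest p, with an interaction of -0.38 (SE 0.08, adjusted p = 0.0886), and Sdhaf4 followed at -0.47 (SE 0.12, adjusted p = 0.145). DESeq2 called Cox14 (adjusted p = 0.000827) and Sdhaf4 (adjusted p = 0.0416), against 0.482% of the genes it tested, and limma-voom called none of the factors. With the offset for transcript length and GC content described below, the interaction was -0.26 for Cox14 (adjusted p = 0.487) and -0.38 for Sdhaf4 (adjusted p = 0.566). Females were also compared with males within each strain. None of the 42 was called in High Activity mice, against 0.0344% of all genes. At an unadjusted p under 0.05 there were 2 factors, against 6.26% of the expressed protein-coding genes. None was called in Low Activity mice, against 0.235% of all genes. At an unadjusted p under 0.05 there were 9 of 42, all higher in females, against 17.1% of the expressed protein-coding genes, or 7.87% higher in females. Uqcc2 came closest there, with a log2 fold change of Low Activity females over Low Activity males of 0.29 (SE 0.07, adjusted p = 0.0694), and DESeq2 called 4 factors in this comparison, against 1.06% of the genes it tested. The comparison in Low Activity mice shares its groups with those of the strains. A high value in Low Activity females enters it, the female strain difference, the mean of the sexes and the interaction. Such a value does not enter the comparison of the sexes in High Activity mice or the male strain difference.

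The factors called in females were unevenly spread over transcript length, a split made after these values were known and therefore given without a test. A group of 8 factors has no annotated transcript over 1 kb (Ndufaf8, Sdhaf4, Uqcc2, Uqcc3, Cox14, Cox20, Coa3 and Coa6, with longest transcripts of 649 to 886 bases). Of these, 6 were called lower in High Activity females and 0 in males, with a median of -0.33 in females and of 0.01 in males. Of the 34 factors with longer transcripts, 1 was called higher and 2 lower in each sex, with a median of -0.10 in females and -0.01 in males. All expressed protein-coding genes with transcripts up to 1 kb, 588 genes, had a median of -0.14 in females, where 102 (17.3%) were called lower and 19 higher. In males their median was 0.05, with 28 called lower and 53 higher. Those with longer transcripts, 14526 genes, had medians of 0.00 in females and -0.01 in males. At an unadjusted p under 0.05, 5 of the 8 short factors had an interaction with a lower value in females. So did 179 of the 588 short genes and 808 of the 14526 longer ones. In Low Activity mice 6 of the 8 were higher in females at that threshold, as were 215 of the 588 and 972 of the 14526. Such short genes took 3.14% to 3.40% of the counts of expressed protein-coding genes in High Activity females, against 3.36% to 3.46% in Low Activity females, and 3.24% to 3.597% in High Activity males, against 2.86% to 3.26% in Low Activity males. The part of this library-wide shift in the values of the short factors was tested only by an offset fitted in each library on transcript length and GC content. With it, 3 of the 8 short factors were still called lower in females (Sdhaf4 at -0.29, Uqcc2 at -0.23 and Cox14 at -0.25), their median became -0.24, and Uqcc3, Cox20 and Coa6 were no longer called, at -0.22, -0.27 and -0.30 (adjusted p = 0.138, 0.121 and 0.1). Cox18, Ndufaf7 and Coa5 moved by at most 0.05 in females, at -0.83, 0.33 and -0.24, and remained called. The offset lessened the library-wide shift without removing it. Under the offset the 588 short genes kept a median of -0.05 in females and of 0.03 in males. Whether the remaining calls of short factors hold part of the shift was not tested.

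**Figure D3:**
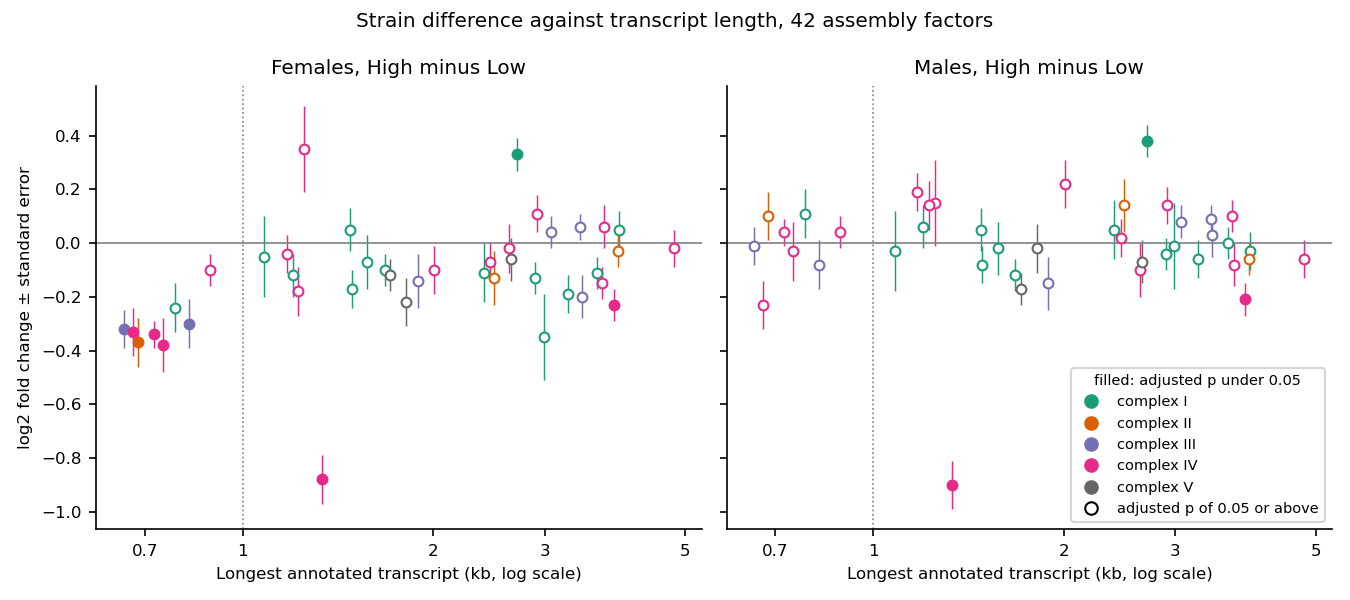
Log2 fold change of High Activity minus Low Activity mice with its SE (y axis) against the longest annotated transcript of each of the 42 factors (x axis, kb, log scale), in females on the left and males on the right, coloured by complex and filled at an adjusted p under 0.05. Left of the dotted line at 1 kb, 6 of 8 points are filled in females and 0 of 8 in males.

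The subunits that the factors assemble were set beside them from lists fixed by complex, with no test between the lists. Of 75 nuclear-encoded subunits, 33 were called lower and 0 higher in High Activity females, against 6.43% and 6.88% of the expressed protein-coding genes. In High Activity males 6 were called higher and 0 lower, against 4.90% and 5.75% of those genes. Subunit values are from the fit without the offset for transcript length and GC content. For complex I, 10 of 36 subunits were lower in females, among them Ndufc1 and Ndufc2 at -0.37 each, whereas 0 of its 14 factors were. For complex II 1 of 4 subunits was lower in females (Sdhb, at -0.21) beside 1 of 3 factors. For complex III 6 of 9 subunits were lower in females, with Uqcr11 at -0.35, beside 2 of 6 factors. For complex IV 8 of 11 subunits were lower in females, with Cox7a2 at -0.28 and Cox6b1 at -0.25, beside 5 of 16 factors. For complex V 8 of 15 subunits were lower in females, with Atp5j2 at -0.41, beside 0 of 3 factors. In males Uqcrb, of complex III, was higher in High Activity mice at 0.33 (SE 0.07, adjusted p = 0.00169), as was Atp5k, of complex V, at 0.31 (SE 0.09, adjusted p = 0.0319). The interaction was below 0 for all 75 nuclear subunits, with a median of -0.22, and below 0 for 30 of the 42 factors, with a median of -0.09 (-0.05 with the offset for length and GC content), while none of either was called. Among expressed protein-coding genes with transcripts up to 1 kb it was below 0 for 484 of 588 (median -0.20), beside all 34 such subunits (median -0.26). For longer transcripts it was below 0 for 7136 of 14526 genes (median 0.00, or -0.11 at 1 to 2 kb), beside all 41 such subunits (median -0.19). The part of the shift with length in the subunits' values was not tested. The 34 subunits with transcripts up to 1 kb had a female median of -0.19 and the 41 with longer ones a median of -0.17, with 14 and 19 called lower. Of 13 subunits encoded in the mitochondrion, 3 were called higher in High Activity females and 5 in High Activity males, with the smallest p for mt-Nd4l (0.38) in females and mt-Nd1 (0.33) in males, and 0 were called lower.

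**Figure D4:**
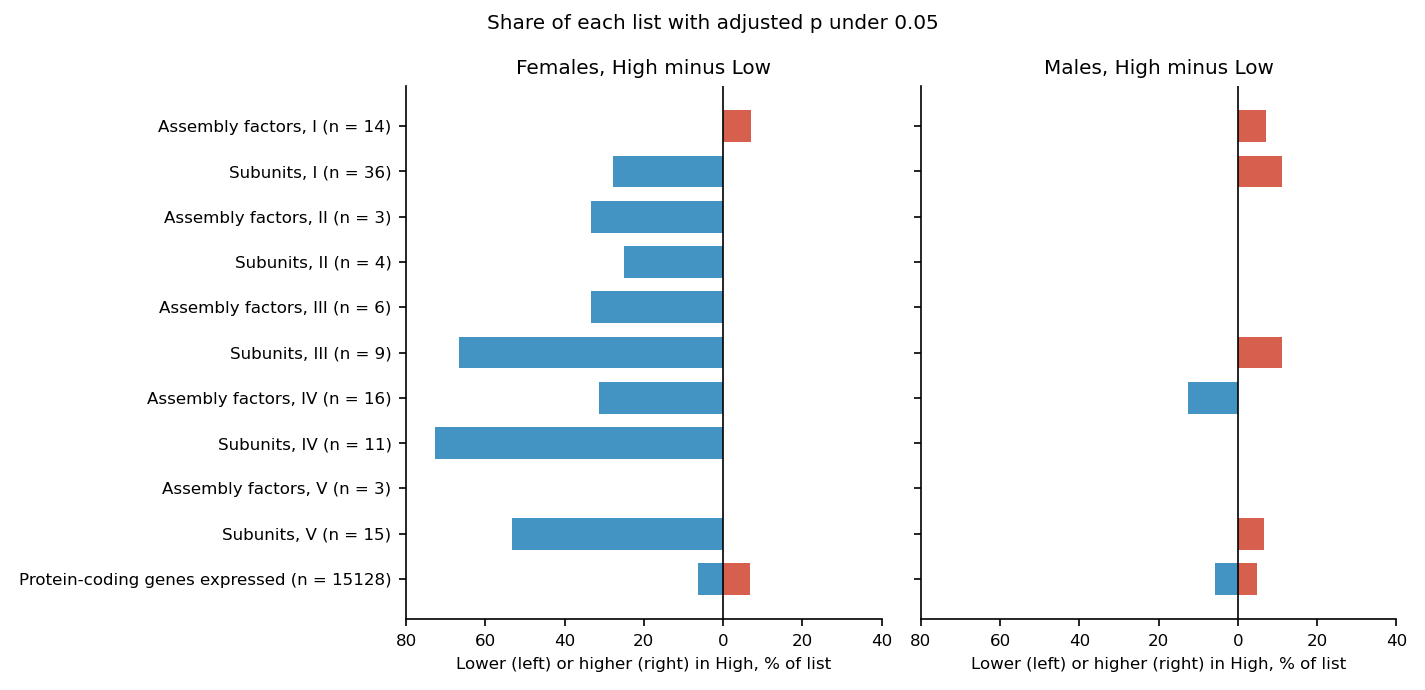
Percent of each list called at an adjusted p under 0.05 (x axis, lower in High Activity mice to the left of 0 and higher to the right) for the factors and the nuclear subunits of each complex and for expressed protein-coding genes (y axis), in females on the left and males on the right. Subunits of complexes III, IV and V have the longest bars in females, and no bar of a nuclear subunit list points to the lower side in males.

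Another 19 assembly factors outside the list of 42 were examined in the same way. In females 1 was lower and 0 higher, against 13.3% of the expressed protein-coding genes called in either direction. In males 1 was lower and 1 higher, against 10.6% of those genes. Coa4, a small protein of the intermembrane space linked to complex IV, was lower in High Activity mice of both sexes, at -0.77 (SE 0.16, adjusted p = 0.00275) in females and -0.66 (SE 0.16, adjusted p = 0.012) in males. Pet100, a factor of complex IV, rose by 0.26 on the log2 scale in High Activity males (SE 0.08, adjusted p = 0.0419) and was at -0.17 (SE 0.08, adjusted p = 0.205) in females, with an interaction of -0.43 that was not called (adjusted p = 0.137).

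As levels, the factors were modest beside the subunits. Divided by exon length, the mean level over all libraries was 0.84 (Nubpl) to 82.4 (Cox14) CPM per kb with a median of 7.41, against medians of 48.0, 48.4, 75.5, 127 and 71.9 CPM per kb for the nuclear subunits of complexes I, II, III, IV and V. Cox14, Uqcc2 (60.3 CPM per kb) and Coa3 (56.3 CPM per kb) stood above the other factors, of which Surf1 was next at 22.8 CPM per kb. The exon length is that of all annotated exons of a gene merged, so this order depends on the annotation. It is 0.723 kb for Cox14, 0.837 kb for Uqcc2 and 0.886 kb for Coa3. Cox17, with a mean of 44.7 CPM, has 5.77 kb and came to 7.74 CPM per kb. The spread within a group was small, with a median coefficient of variation of 6.22% over the 42 factors and 4 groups.

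Genes that lie beside a factor were counted, since an inbred strain carries neighbouring alleles together. Within 1 Mb of Ndufaf7, 7 of 15 expressed protein-coding genes had a strain effect in either sex (46.7%, against 18.7% of all such genes). Within the same distance of Cox18 it was 3 of 10 (30.0%), of Sdhaf4 3 of 7 (42.9%), of Cox14 9 of 43 (20.9%) and of Uqcc2 7 of 36 (19.4%). It was 4 of 12 (33.3%) for Coa6, 2 of 8 (25.0%) for Cox20 and 1 of 13 (7.69%) for Tmem70, and 0 of 25 for Coa5 and 0 of 31 for Uqcc3. High shares also stood beside factors that were not called, with 11 of 21 (52.4%) for Cox15 and 4 of 8 for Cox11. Whether the neighbours bear on the factors' values was not tested. Several other factors share exon sequence with another gene, and their values are uncertain to that degree. The largest shares were for Ndufaf2 (65.6% of its exons with B230220B15Rik), Sdhaf1 (69.6% with E130208F15Rik), Cox11 (48.3% with Tom1l1) and Cox16 (56.8% with Gm20498). None of these 4 was called in either sex. Of the stretches of 75 bases in the longest transcript, Cox16 shares 88.5% with Gm20498 and Atpaf1 28.7% with Gm14117. Smaller exon overlaps include Ecsit (24.0% with Gm16845) and Sdhaf4 (12.7% with Gm26524), and Sdhaf4 was called in females.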

How the data were processed

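RNA of both hippocampi of each mouse was sequenced from poly-A selected libraries, strand-specific per the labels. The authors aligned reads to mm10 with HISAT2, derived gene-level expected counts with RSEM on an Ensembl transcriptome, deposited them as whole numbers without normalisation, and tested them with DESeq2 1.30.1. The strand setting of the counting is not given in the sources used here. All 16 libraries had 20815456 to 28760896 counts, no 2 libraries of a group were duplicates, and the depth limits the factors with the fewest counts most.

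Symbols came from GENCODE M21, in which 61 of 31960 gene identifiers had no entry. The expected counts were fitted with edgeR 4.0.16 (R 4.3.3, limma 3.58.1) with TMM factors, no filter on low counts and 1 mean per group, and contrasts were tested by the quasi-likelihood F-test. Values in every library were given for factors called for any strain effect or within a sex, and for the factor with the smallest p in a complex without one. The subunits named in a list had its smallest p. One result that this rule would name is not reported here. The members and lists were chosen with earlier results of these data known. Alternatives were filterByExpr, other normalisation factors, DESeq2 1.42.0, voom in limma, edgeR's newer estimate of quasi-dispersion, a per-library offset for transcript length and GC content, adjustment over protein-coding genes, each sex alone, leaving out each library, and leaving out libraries 6 and 8. The fitting procedure was tested on simulated data.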

Additional observations from a re-analysis of the deposited data

Results flagged for a closer look

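Ndufaf7 was at 28.9 CPM in library 6 of the High Activity males, away from the other 3 libraries of that group at 26.7 to 26.8 CPM. The gap was 0.965 of the range of the group, above the critical value of Dixon's test for 4 samples. It was the only one past it of 60 groups of 4 libraries, from 10 factors and the 5 sums by complex, and chance alone puts about 1 in 20 such groups past it. The Ndufaf7 call in males held without this library.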

How the results depend on the processing

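The number of factors called was 6 to 10 in females and 2 to 4 in males over the alternatives, and no log2 fold change of a factor with values in each library changed sign from a called value. Leaving out 1 library at a time gave 6 to 9 factors in females, 2 to 4 in males, 5 to 10 in the mean of both sexes (5 without library 7, of a High Activity male), 0 to 1 in the interaction (1 without library 5 or 7) and 0 to 2 for Low Activity females against Low Activity males (2 without library 6 or 16). The interaction gave 2 calls with DESeq2, which called 154 of all genes. Low Activity females against Low Activity males gave 1 call with filterByExpr, 4 with DESeq2, 2 with adjustment over protein-coding genes and 4 without libraries 6 and 8, while all genes called numbered 108, 339, 138 and 523 in that order, against 75. The cause of these changes was not tested. No paired analysis was possible because each library number is used once and the groups share none.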
